A study of Mus musculus with 16 samples.

Results

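The genes described here are 10 genes by which liver macrophages are recognised, Clec4f, Marco, Vsig4, Cd5l, Folr2, Csf1r, C1qa, Ctss, Cybb and Trem2, in RNA sequenced from sorted mouse hepatic stellate cells (HSCs). They were chosen by name, and their values were read from every row of 3 deposited tables that names one of them. The tables have 6515 rows in all, of which 5716 compare quiescent HSCs (qHSCs), 568 GFP-intermediate activated HSCs (aHSCs) and 231 GFP-high aHSCs. Of the 10 genes, 9 had a row for qHSCs, 10 for GFP-intermediate aHSCs and 0 for GFP-high aHSCs.

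Kupffer cells are the macrophages that live in the liver sinusoids, where they take up bacteria, complement-coated particles, dying red cells and lipoproteins from portal blood. They carry a set of genes by which they differ from most other macrophages, and when they are lost monocytes can enter the liver, become macrophages and gain this set with time. Clec4f, a C-type lectin, is the mouse Kupffer cell marker in common use, Marco is a scavenger receptor for bacteria, Vsig4 a complement receptor, Cd5l a secreted protein of lipid and scavenger biology, and Folr2 a folate receptor of resident macrophages. These 5 are called resident Kupffer genes below. The other 5, called other macrophage genes, are shared more widely among macrophages. Csf1r is the receptor for the growth factor that keeps macrophages alive, C1qa is a chain of the first complement component, Ctss is a lysosomal protease of antigen processing, Cybb is the membrane subunit of the phagocyte NADPH oxidase, and Trem2 is a lipid-sensing receptor of macrophages in injured liver.

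The study compared HSCs by their embryonic origin and by the presence of the transcription factor WT1. The qHSCs came from uninjured WT1CreERT2;Ai14 mice of strain C57/Bl6, whose livers were taken after weaning, in which tamoxifen at E10.5 had switched on red fluorescent protein (RFP) in cells then using the WT1 promoter. Label-negative and label-positive qHSCs were each sequenced from the same 3 animals, given as male in the sample labels and as female in the methods of the study. The aHSCs came from adult male mice of the same strain after 8 weeks of carbon tetrachloride, a toxin that scars the liver. Control animals were PDGFRbCre;WT1_+_GFP;Ai14 and WT1-deleted animals PDGFRbCre;WT1_fl_GFP;Ai14, so that both carried a GFP allele of WT1 and a constitutive Cre recombinase driven by the PDGFRb promoter, and every aHSC sample was sorted as RFP-positive. GFP-high aHSCs were sequenced from 3 control and 3 WT1-deleted animals and GFP-intermediate aHSCs, GFP low in the sample labels, from 2 samples of each genotype, of which 1 control sample pooled 2 animals. GFP-high and GFP-intermediate samples shared 3 control and 2 WT1-deleted animals.

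Each value is 1 FPKM (fragments mapped to a transcript, scaled to its length and to the size of the library) for a whole group, so no spread between animals or interval can be given, no test of the members was run here, and the depth of the samples is unknown. The tables hold a selection of genes, and among the rows for WT1 deletion, 149 (GFP-intermediate) and 108 (GFP-high) are loci without a gene name. A gene with a row had to differ. The smallest absolute log2 ratio of any row was 0.55 for qHSCs and 1.06 for GFP-intermediate aHSCs. A gene is written as called below where its group FPKM differed at least 2-fold. The 3 tables were scaled separately, and levels are therefore set side by side within a table, while ratios of genes within a group are also given across tables. In sorted bulk RNA, fewer macrophages, less RNA of a gene per macrophage and less RNA of it from the sorted HSCs themselves cannot be told apart.

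The promoters of the member genes are shown because the members were lower together in GFP-intermediate aHSCs and divided in qHSCs. The 250 bases before the gene start were taken from RefSeq (GRCm38.p6), in which 8 of the 10 genes were matched by symbol, all but C1qa and Csf1r. Capitals mark GAGGAA or its reverse complement, the core of sites bound by PU.1, the transcription factor (gene Spi1) on which macrophages depend. The first 3 are resident Kupffer genes and the last 3 other macrophage genes.
Marco, chr1:120505025-120505274, minus strand: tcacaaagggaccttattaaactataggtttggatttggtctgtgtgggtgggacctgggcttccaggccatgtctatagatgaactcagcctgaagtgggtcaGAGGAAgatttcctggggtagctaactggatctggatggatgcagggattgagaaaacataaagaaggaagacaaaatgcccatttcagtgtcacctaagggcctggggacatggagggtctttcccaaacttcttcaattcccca
Vsig4, chrX:96293439-96293688, minus strand: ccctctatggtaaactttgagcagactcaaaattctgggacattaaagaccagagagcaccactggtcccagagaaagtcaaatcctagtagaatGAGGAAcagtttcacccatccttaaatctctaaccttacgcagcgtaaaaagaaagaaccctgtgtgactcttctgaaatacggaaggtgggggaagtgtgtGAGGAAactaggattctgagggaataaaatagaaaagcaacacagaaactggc
Clec4f, chr6:83656117-83656366, minus strand: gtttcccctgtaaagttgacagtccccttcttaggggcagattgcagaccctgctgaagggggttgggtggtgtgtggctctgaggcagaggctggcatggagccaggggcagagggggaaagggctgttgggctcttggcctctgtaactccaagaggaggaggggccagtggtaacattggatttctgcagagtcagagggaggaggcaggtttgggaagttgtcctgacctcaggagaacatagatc
Ctss, chr3:95526536-95526785, plus strand: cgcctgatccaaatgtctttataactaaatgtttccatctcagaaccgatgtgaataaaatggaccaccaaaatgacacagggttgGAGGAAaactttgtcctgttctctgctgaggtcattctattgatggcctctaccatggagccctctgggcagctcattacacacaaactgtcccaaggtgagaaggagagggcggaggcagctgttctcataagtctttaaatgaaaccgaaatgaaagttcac
Trem2, chr17:48346151-48346400, plus strand: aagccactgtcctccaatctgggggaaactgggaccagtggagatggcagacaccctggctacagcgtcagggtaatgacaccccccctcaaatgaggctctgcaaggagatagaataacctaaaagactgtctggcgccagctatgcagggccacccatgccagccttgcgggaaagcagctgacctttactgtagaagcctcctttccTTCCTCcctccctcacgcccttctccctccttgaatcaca
Cybb, chrX:9469325-9469574, minus strand: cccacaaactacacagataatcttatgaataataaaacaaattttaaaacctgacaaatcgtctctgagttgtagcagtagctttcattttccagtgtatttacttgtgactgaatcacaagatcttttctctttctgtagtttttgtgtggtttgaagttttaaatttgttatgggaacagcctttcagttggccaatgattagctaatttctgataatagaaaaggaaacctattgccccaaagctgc

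GAGGAA stood on either strand before 5 of the 8 genes, Marco, Vsig4, Cd5l, Ctss and Trem2. Before the other 3, Clec4f, Folr2 and Cybb, these letters were not found, and for Folr2 the windows of separate gene starts were read. Of all 27025 genes with a window, 25.9% held these letters. The letters were therefore found on both sides of the division seen in qHSCs, in Marco and Vsig4 as in Ctss and Trem2. The copy lay 146 bases before the start in Marco, 164 in Ctss and 40 in Trem2, and the 2 copies of Vsig4 lay 155 and 53 bases before it. Of the longer strings that contain it, GAGGAAG was present in 3 of the 8 genes against 10.6% of windows, and AGAGGAAGT in 0 of 8 against 0.798%. GGAAGT, which overlaps the last of these, was present in 3 of 8 against 22.2%. Searched in addition were TGCTGA, the core of a MAF factor site, in 4 of 8 against 18.0%, and TGCTGAC in 0 of 8 against 4.31%. The nuclear receptor half-site AGGTCA was present in 3 of 8 against 15.8%, and TATAAA in Ctss, 1 of 8, against 14.3%. Both strands were read for each string, and these matches describe letters only.

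In qHSCs the members divided by class. All 5 resident Kupffer genes were higher in lineage label-positive than in label-negative cells, by 3.99-fold to 6.71-fold, whereas Ctss, Cybb and Trem2 were lower by 2.42-fold to 3.57-fold and C1qa was 2.16-fold higher. Of the 9 members with a row, 6 were called higher, against 37.7% of all rows, and 3 were called lower, against 43.5%. The median log2 ratio was 2.15 for the resident Kupffer genes and -1.33 for the other macrophage genes with a row, a gap of 3.48, beside a median of 0.64 over all rows with a finite ratio. With the ratios centred on that median, the directions of the 9 genes stayed as given and C1qa was no longer called. With a limit of 4-fold, 4 resident Kupffer genes were called higher and 0 members lower. Of all rows, 6.98% had a larger log2 ratio than Vsig4, which was just short of this limit at 3.99-fold.

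Clec4f was at 34.2 FPKM in label-negative and 166 FPKM in label-positive cells, a log2 ratio of 2.28. Marco had the lowest FPKM of the 9 genes in label-negative cells, 4.82, and was at 32.4 FPKM in label-positive cells, a log2 ratio of 2.75. This was the largest ratio of any member, and 3.66% of rows had a larger one. Cd5l was at 20.3 and 86.0 FPKM, Folr2 at 6.74 and 30.0 FPKM and Vsig4 at 13.001 and 51.9 FPKM. The log2 ratios of these 3 genes, 2.08, 2.15 and 1.996, lay close together, and those of all 5 resident Kupffer genes spanned 0.75.

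The other macrophage genes spanned 2.94 on the same scale. Ctss was the highest member in label-negative cells, at 247 FPKM, and was at 94.9 FPKM in label-positive cells, a log2 ratio of -1.38. Cybb was at 91.9 and 25.8 FPKM, a ratio of -1.83, the lowest among the members. Trem2 was low in both fractions, at 6.28 and 2.59 FPKM, a ratio of -1.28. C1qa stood apart from these 3 genes, at 59.4 FPKM in label-negative and 128 FPKM in label-positive cells, a ratio of 1.11, higher in label-positive cells like the resident Kupffer genes but with a smaller ratio than any of the 5. Csf1r had no row in the table used here.

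The order of levels changed accordingly, and since no spread was available, neighbours in this order cannot be separated. In label-negative cells the order from the top was Ctss, Cybb, C1qa, Clec4f, Cd5l, Vsig4, Folr2, Trem2 and Marco, with Ctss at 7.23 times the FPKM of Clec4f. In label-positive cells it was Clec4f, C1qa, Ctss, Cd5l, Vsig4, Marco, Folr2, Cybb and Trem2. Clec4f passed from the fourth place to the first and Cybb from the second place to the eighth. C1qa and Clec4f were within 1.29-fold of each other in label-positive cells.

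**Figure D1:**
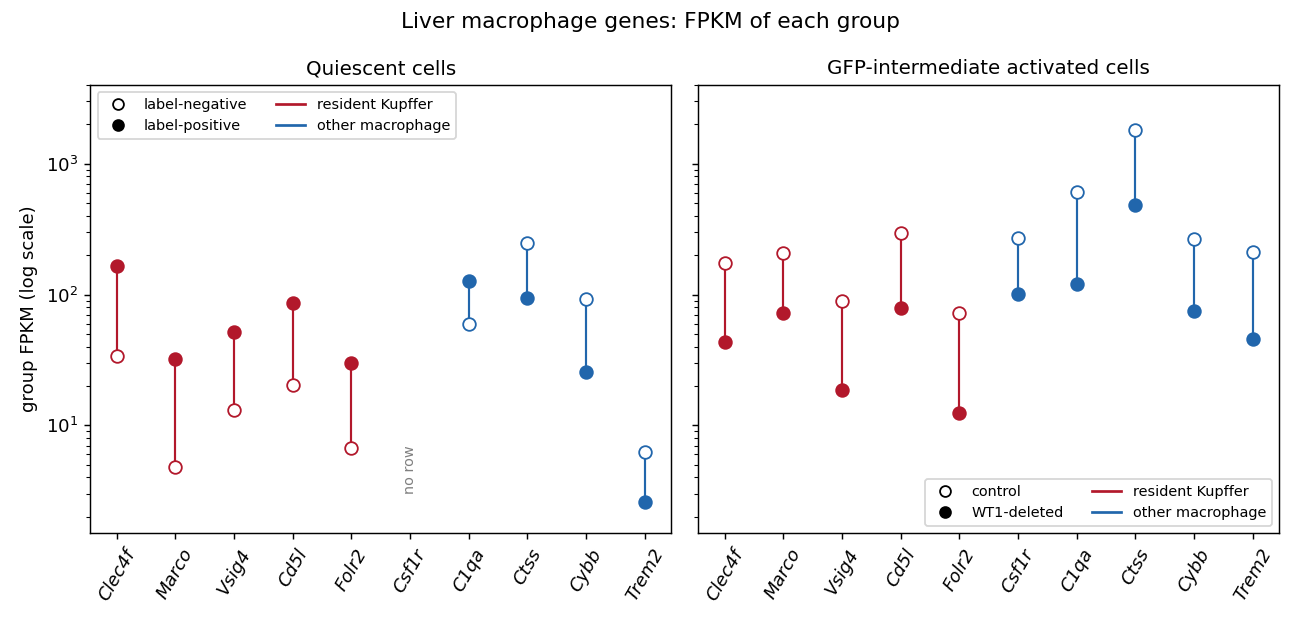
Group FPKM of the 10 genes on a log scale (vertical axis), for qHSCs on the left and GFP-intermediate aHSCs on the right. Each circle is 1 group value with no error, open for label-negative or control and filled for label-positive or WT1-deleted, in red for resident Kupffer and blue for other macrophage genes. On the left the filled circle is above the open one for the 5 red genes and C1qa and below it for Ctss, Cybb and Trem2, and on the right it is below for all 10 genes.

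Families related to the members were also divided. Of 11 further Kupffer cell genes, 7 had a row and 7 were called higher in label-positive qHSCs. Hpgd, a prostaglandin-degrading enzyme, was at 175 and 475 FPKM, Id3, a regulator of Kupffer cell identity, at 220 and 447 FPKM, and C6, a complement component, at 2.55 and 10.54 FPKM. Timd4, a receptor for dying cells on long-lived resident macrophages, was at 4.14 and 15.1 FPKM. The 7 listed genes with a row thus had higher FPKM in label-positive cells, with log2 ratios of 1.02 to 2.05. Those of the 12 listed sinusoidal endothelial genes were 1.28 to 1.86, and the cells from which this RNA came were not tested.

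General macrophage genes were on both sides. Of 18 on the list, 13 had a row, 4 were called higher and 6 lower, and the median log2 ratio was -0.76. The 4 higher genes were Mrc1, a mannose receptor, at 268 and 791 FPKM, Msr1, a scavenger receptor, at 39.96 and 164 FPKM, Lgmn, a lysosomal protease, at 197 and 478 FPKM, and Mertk, a receptor for dying cells, at 37.7 and 104 FPKM. Mrc1 is also a receptor of sinusoidal endothelial cells. Among the lower genes, Lyz2 (lysozyme) was at 1283 and 289 FPKM, Laptm5, a lysosomal protein of blood cells, at 737 and 100 FPKM, a log2 ratio of -2.88, and Spi1, which encodes PU.1, at 79.5 and 22.7 FPKM.

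C1qa was accompanied by the other chains of its complex, while the receptors for complement went the other way. C1qb was at 56.6 and 109 FPKM and C1qc at 43.1 and 103 FPKM, and the log2 ratios of the 3 chains were 1.11 for C1qa, 0.94 for C1qb and 1.26 for C1qc. The 3 genes neighbour each other on chromosome 4 (GRCm38). The integrin chains of complement receptors were lower in label-positive cells, Itgb2 at 143 and 21.2 FPKM and Itgam at 43.3 and 9.80 FPKM, as was C5ar1, the receptor of the C5a fragment, at 44.0 and 15.8 FPKM. Vsig4, which binds C3 fragments, thus differed in direction from these receptors.

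Cybb was accompanied by its cytosolic partners. Of the 5 other NADPH oxidase subunits, 4 had a row and 4 were called lower, with a median log2 ratio of -2.58. Rac2 was at 160 and 15.4 FPKM, a ratio of -3.38, and Ncf4 at 147 and 20.9 FPKM, a ratio of -2.82. The ratio of Cybb, -1.83, was nearer to 0 than those of the 4 partners.

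Ctss differed in direction from several cathepsins. Of 12 other cathepsins, 9 had a row, 2 were called higher and 4 lower. Ctsl was called higher in label-positive cells, at 283 and 693 FPKM, and Ctsb was higher but not called, at 193 and 361 FPKM. Ctsh, at 159 and 51.4 FPKM, and Ctsw, a cathepsin of cytotoxic lymphocytes, at 71.2 and 3.63 FPKM, were called lower.

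Clec4f differed in direction from the C-type lectin receptors of other myeloid cells. Of 10 of these, 9 had a row and 9 were called lower, among them Clec7a, a receptor for fungal glucans, at 87.3 and 20.0 FPKM, Clec4e at 86.6 and 17.9 FPKM and Cd209a at 23.7 and 3.79 FPKM. The growth factor of Csf1r, Csf1, was higher in label-positive cells at 142 and 257 FPKM but not called, and Csf3r, the receptor of the granulocyte growth factor, was called lower at 129 and 30.6 FPKM. Genes that accompany Trem2 in lipid-handling macrophages had no common direction. Of 10, 6 had a row, 2 were called higher and 3 lower. Lgals3 was called lower at 94.9 and 17.8 FPKM, and Fabp5, a fatty acid carrier, was called higher at 26.9 and 79.0 FPKM. Lipa was higher but not called, at 46.1 and 82.8 FPKM.

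Markers of other cell types differed along with both classes of members. The 7 MHC class II genes, carried by dendritic cells, B cells and some macrophages, were all called lower in label-positive cells. Their summed FPKM was 4109 and 703. Also called lower were 7 of 7 monocyte genes (735 and 72.1) and 12 of 12 T, NK and B lymphocyte genes (1300 and 40.3). The same held for 11 of the 11 granulocyte genes with a row of 12 listed (2322 and 459). Of 7 dendritic cell genes listed, 6 had a row and 5 were called lower. The summed FPKM of all 6 was 221 and 75.1, which includes Zbtb46, called higher at 25.9 and 61.7 FPKM. Called higher were 12 of 12 liver sinusoidal endothelial genes, with a summed FPKM of 4464 and 11919, and 8 of 8 hepatocyte genes, with 180 and 1019. No gene of these lists with a row was at 0 in either fraction. The resident Kupffer members were thus higher beside endothelial and hepatocyte genes, and Ctss, Cybb and Trem2 were lower beside monocyte, granulocyte and lymphocyte genes. The part of these cells in the members' values was not tested.

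Those genes that define HSCs and had a row for qHSCs were divided in direction. Of 16, 10 had a row, 4 were called higher and 6 lower. Pdgfrb, the growth factor receptor by which HSCs are stained, was at 0.905 and 0.370 FPKM, Dcn, a matrix proteoglycan, at 109 and 49.0 FPKM and Hgf, the hepatocyte growth factor made by HSCs, at 17.0 and 44.1 FPKM. Clec4f was therefore above Hgf and Dcn in label-positive cells, a comparison of FPKM levels per transcript length. Acta2, Col3a1, Des, Ecm1, Lrat and Reln had no row for qHSCs, so their levels are not known from these values.

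**Figure D2:**
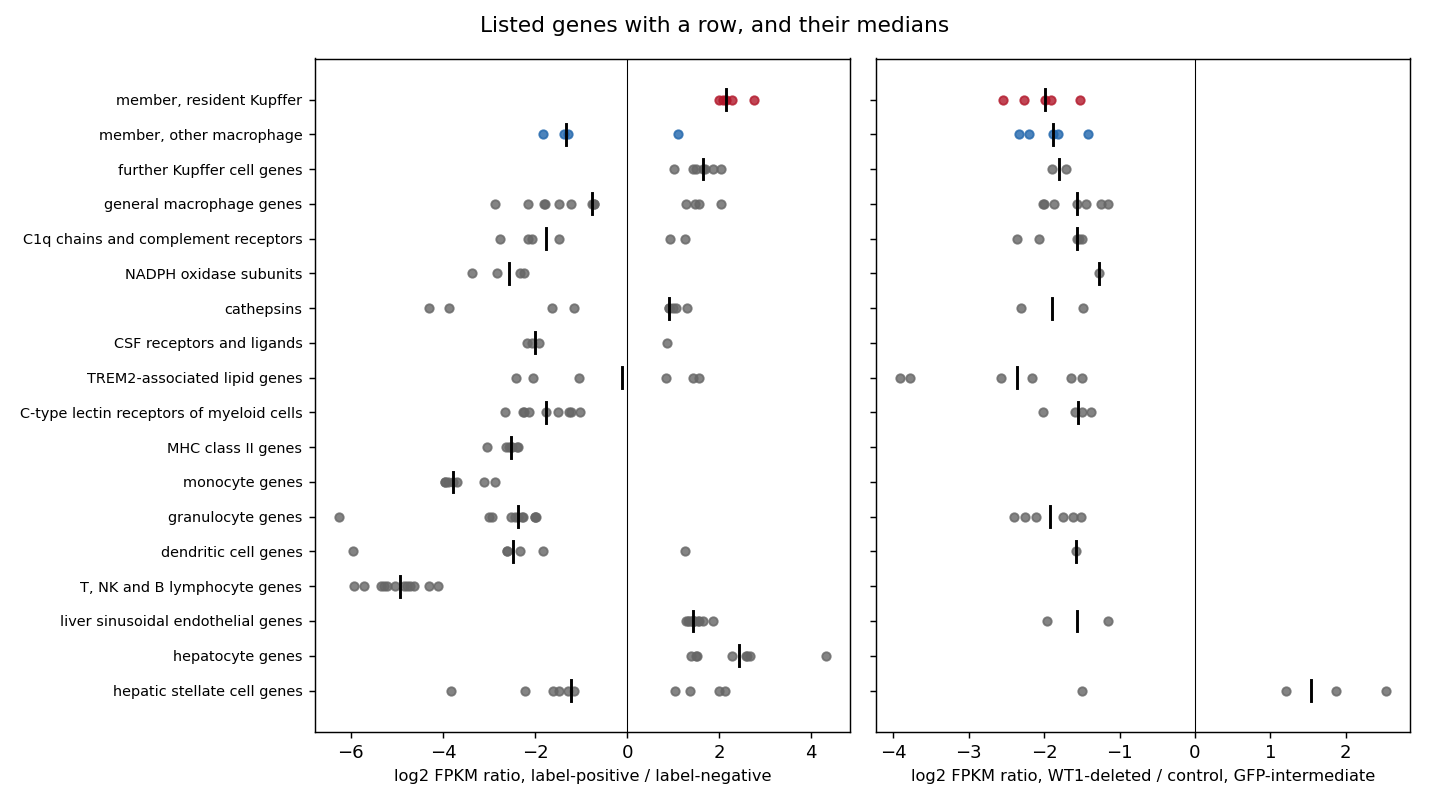
Log2 ratio of group FPKM (horizontal axis) for every listed gene with a row, 1 point per gene, label-positive over label-negative qHSCs on the left and WT1-deleted over control GFP-intermediate aHSCs on the right, with the members in red and blue and the median of each list as a black bar. On the left the resident Kupffer members (median 2.15) lie with the further Kupffer, endothelial and hepatocyte genes, and on the right the macrophage lists lie below 0.

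In GFP-intermediate aHSCs all 10 members were lower in WT1-deleted than in control animals, by 2.68-fold to 5.81-fold. All 10 were called lower, against 67.3% of all rows, and 0 were called higher, against 32.7%. Since every row of this table was past 2-fold, the count describes direction only. Centred on the median of all rows, 2 of the 10, C1qa and Folr2, were still called, and with a limit of 4-fold 4 were, these 2 with Vsig4 and Trem2. Of all rows, 30.8% had a lower ratio than C1qa, and 37.0% a lower one than Clec4f, which was just short of 4-fold. The median log2 ratio was -1.99 for the 5 resident Kupffer genes and -1.89 for the 5 other macrophage genes, a gap of -0.10, beside a median of -1.33 over all rows with a finite ratio. Without the division by class seen in qHSCs, the ratios of the 10 genes spanned 1.12 in all. Folr2 counted with the other macrophage genes turned the sign of this gap, to 0.10.

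Ctss had the highest control FPKM of all 568 rows, at 1799 FPKM, and was at 486 FPKM after deletion, a log2 ratio of -1.89. C1qa was the fifth highest row of the controls, at 609 FPKM, and was at 121 FPKM after deletion, a ratio of -2.34. Csf1r was at 269 and 100 FPKM, a ratio of -1.42, the ratio nearest to 0 among the members. These 3 genes had the highest FPKM of the other macrophage genes in both genotypes. Cybb was at 266 and 75.5 FPKM, a ratio of -1.82, close to that of Ctss. Trem2, which was low in qHSCs, was at 212 and 46.1 FPKM, a ratio of -2.20.

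The resident Kupffer genes lay between the 71.9 FPKM of Folr2 and the 297 FPKM of Cd5l in the controls. Cd5l was at 297 FPKM in controls and 79.0 FPKM after deletion, a log2 ratio of -1.91. Marco was at 209 and 72.2 FPKM, a ratio of -1.53, and Clec4f was at 174 and 43.8 FPKM, a ratio of -1.99. Vsig4, at 89.4 and 18.5 FPKM, and Folr2, at 71.9 and 12.4 FPKM, were the lowest members in both genotypes and had the ratios furthest from 0 in their class, -2.27 and -2.54. The order of the members was nearly kept. In controls it was Ctss, C1qa, Cd5l, Csf1r, Cybb, Trem2, Marco, Clec4f, Vsig4 and Folr2, and after deletion Csf1r stood above Cd5l and Marco above Trem2.

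Other macrophage genes were lower with them. Of 18 general macrophage genes, 7 had a row and 7 were called lower, among them Fcer1g, a signalling chain of antibody receptors, at 725 and 325 FPKM, Aif1, an actin-binding protein of macrophages, at 196 and 66.2 FPKM, Ms4a7, a membrane protein of macrophages, at 75.8 and 18.7 FPKM, and Adgre1, listed under its older symbol Emr1, at 131 and 32.8 FPKM. Of 11 further Kupffer cell genes, 2 had a row and 2 were called lower. Slc40a1, the iron exporter, was at 85.2 and 22.8 FPKM, and Cd163, the haemoglobin receptor, was at 6.86 and 2.09 FPKM.

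The partners of C1qa, Cybb, Ctss and Clec4f that had a row went the same way. C1qb and C1qc shared 1 row, at 1463 and 284 FPKM, a log2 ratio of -2.36 beside -2.34 for C1qa. Itgb2 was at 389 and 137 FPKM, and in all 5 rows of the C1q chains and complement receptors were called lower. Ncf1, the only row of an oxidase partner of Cybb, was at 94.5 and 39.1 FPKM. Of the cathepsins, Ctsh, at 347 and 124 FPKM, and Ctse, at 4.85 and 0.977 FPKM, had a row. Of 10 C-type lectin receptors of myeloid cells, 4 had a row and 4 were called lower, for example Clec7a at 327 and 116 FPKM, Clec4d at 185 and 71.2 FPKM and Clec12a at 93.4 and 23.2 FPKM.

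Genes that accompany Trem2 in lipid-handling macrophages had the lowest median of the macrophage lists. Of 10, 6 had a row and 6 were called lower, with a median log2 ratio of -2.37. Mmp12, the macrophage elastase, was at 551 and 40.3 FPKM, Lpl, lipoprotein lipase, at 342 and 57.7 FPKM and Atp6v0d2, a subunit of the lysosomal proton pump, at 19.6 and 1.30 FPKM, a ratio of -3.91. The ratio of Trem2 itself, -2.20, was nearer to 0 than those of these 3 genes. It was further from 0 than those of Gpnmb (-2.16), Lipa (-1.64) and Fabp5 (-1.50).

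Fewer markers of other cells had a row for GFP-intermediate aHSCs, with 568 rows in all against 5716 for qHSCs. Lower with the members were the 6 granulocyte genes with a row of 12 listed, whose summed FPKM was 750 in controls and 227 after deletion, 2 of 12 sinusoidal endothelial genes, Stab1 at 120 and 30.8 FPKM and Cdh5 at 17.9 and 8.09 FPKM, and 1 row that Clec9a, a dendritic cell gene, shared with Clec1b. Stab1 is also carried by some macrophages. The MHC class II, monocyte, lymphocyte and hepatocyte lists had 0 rows, so the levels of these genes are not known from these values. Of 16 HSC genes, 4 had a row. Rgs5, a regulator of G protein signalling in pericytes, was called higher at 1.41 and 8.20 FPKM, Colec11, a secreted lectin, at 2.92 and 10.7 FPKM, and Pdgfra, a growth factor receptor, at 18.8 and 43.4 FPKM, while Hgf was called lower at 9.45 and 3.35 FPKM. No listed gene with a row was at 0. The members thus had lower FPKM beside lower granulocyte genes, Stab1, Cdh5 and the HSC gene Hgf, and beside higher Rgs5, Colec11 and Pdgfra. For the 12 HSC genes without a row a change is not known. The part of these cells in the members' values was not tested.

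The make-up of the macrophage gene signal, whichever cells it came from, was compared through the share of the resident Kupffer genes. This share was taken in the summed FPKM of the 9 members with a row in both tables. Label-negative qHSCs gave a share of 16.3% and label-positive qHSCs one of 59.3%, against 22.6% in control and 23.7% in WT1-deleted GFP-intermediate aHSCs. Ctss alone made up 51.1%, 15.4%, 48.3% and 50.9% of the sum in these 4 groups. Clec4f made up 7.06%, 26.8%, 4.66% and 4.59%. The label-positive qHSCs therefore stood apart from the other 3 groups, and the share in GFP-intermediate aHSCs was nearly the same in both genotypes. With Ctss left out, an alternative chosen after seeing the data, the shares were 33.4%, 70.0%, 43.6% and 48.3%, in the same order of groups.

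Ratios to C1qa, taken within each group, differed between the genes in the group that stood apart. Clec4f was at 0.575 of the FPKM of C1qa in label-negative and 1.29 in label-positive qHSCs, and at 0.285 and 0.363 in control and WT1-deleted GFP-intermediate aHSCs. Cybb was at 1.55, 0.201, 0.437 and 0.626 in the same groups, and Marco at 0.0812, 0.253, 0.342 and 0.598. The ratio was thus highest in label-positive qHSCs for Clec4f, whereas label-negative qHSCs had the highest ratio of Cybb and the lowest of Marco. Between the qHSC fractions the ratio of Cybb to C1qa was therefore 0.130 times as high in label-positive cells, and between the genotypes it was 1.43 times as high after deletion. Trem2 was at 0.106 and 0.0203 of C1qa in qHSCs and at 0.348 and 0.382 in GFP-intermediate aHSCs. Csf1r, without a row for qHSCs, was left out of these ratios. Over the other members the ratios after deletion were 0.868 (Folr2) to 1.75 (Marco) times those of controls. In label-positive qHSCs they were 0.130 (Cybb) to 3.11 (Marco) times those of label-negative qHSCs.

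**Figure D3:**
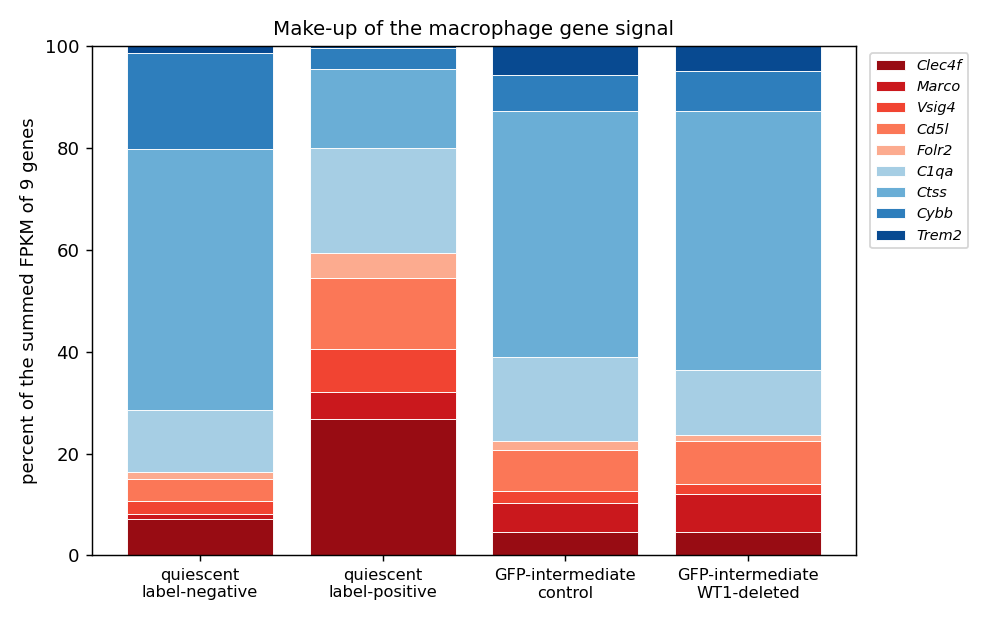
Percent of the summed FPKM of 9 members (vertical axis) taken by each gene in 4 groups, with resident Kupffer genes in reds and other macrophage genes in blues. The red part is 16.3%, 59.3%, 22.6% and 23.7% from left to right, and each bar rests on 1 value per gene with no error.

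Both tables name 223 genes singly, 3.90% of the qHSC rows and 39.3% of the GFP-intermediate rows. The comparisons share no animals. Of the 223 genes, 43, or 19.3%, were higher in label-positive qHSCs and lower after WT1 deletion, and these held 6 members, the 5 resident Kupffer genes and C1qa. Lower in label-positive qHSCs and lower after deletion were 108, or 48.4%, which held Ctss, Cybb and Trem2. The other 44 and 28 genes, higher after deletion and in label-positive or label-negative qHSCs respectively, held 0 members.

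The genes outside the lists nearest to the medians of each class were sought among 157 candidates by the distance over both log2 ratios. The medians were those of the members with a row in both tables, 2.15 in qHSCs and -1.99 in GFP-intermediate aHSCs for the resident Kupffer genes and -1.33 and -2.04 for the other macrophage genes without Csf1r. Nearest to the resident Kupffer genes was Il1a, an interleukin of the IL-1 family, with log2 ratios of 1.91 in qHSCs and -2.15 in GFP-intermediate aHSCs, from 82.1 and 308 FPKM and from 59.0 and 13.3 FPKM. Paqr9, Siglec1, Fabp7 and Rab3il1 followed, and Siglec1, a sialic acid receptor of macrophages, had ratios of 1.52 and -1.98. Nearest to these other macrophage genes was Cxcl14, a chemokine, with ratios of -1.23 and -1.84. Gpr137b-ps, Lyz1, Wdhd1 and Bhlhe41 followed, and Lyz1, a lysozyme, had ratios of -1.50 and -2.26. C1qa was not close to the median of its class, since its qHSC ratio was positive.

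**Figure D4:**
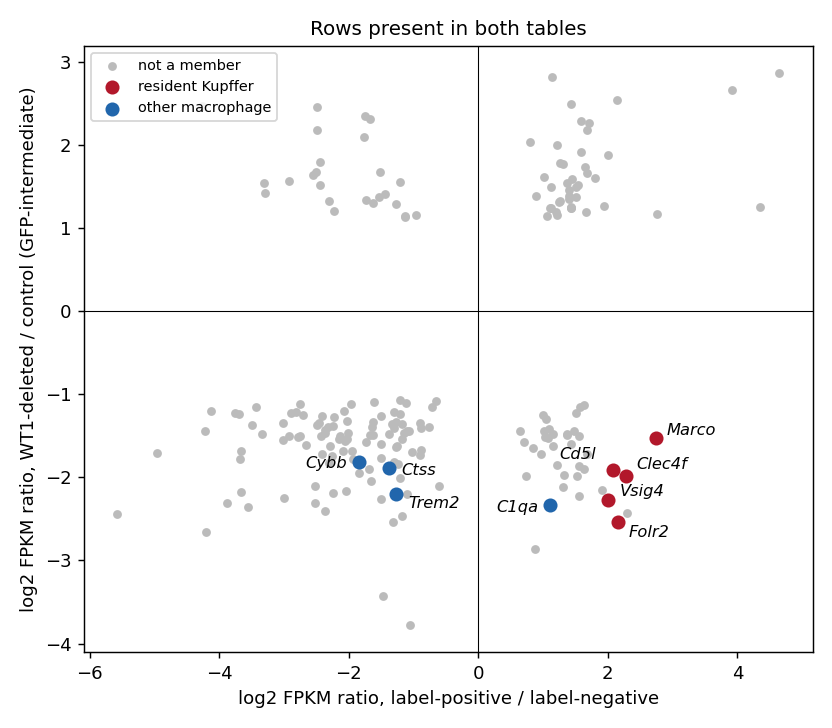
Log2 ratio in qHSCs (horizontal axis, label-positive over label-negative) against log2 ratio in GFP-intermediate aHSCs (vertical axis, WT1-deleted over control) for the genes named singly in both tables, with 1 point per gene, members in colour and others in grey. The 5 resident Kupffer genes lie together at the lower right with C1qa nearer to 0, and Ctss, Cybb and Trem2 lie at the lower left.

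In GFP-high aHSCs 0 of the 10 members had a row among the 231, with 55.0% of rows above and 45.0% below the control level. Whether the members differed there is therefore not known from these values. A few genes of the macrophage lists did have a row. Ms4a7 was at 13.6 FPKM in controls and 39.2 FPKM after deletion, and Gpnmb, a lysosomal glycoprotein that accompanies Trem2, at 20.8 and 101 FPKM. Fabp5, a fatty acid carrier, was at 42.0 and 134 FPKM, and Atp6v0d2 was at 1.503 and 12.7 FPKM. These 4 genes were higher after deletion in GFP-high aHSCs and lower in GFP-intermediate aHSCs, in samples that share animals. The 6 granulocyte genes with a row were lower after deletion in GFP-high aHSCs as well, with a summed FPKM of 520 and 149. Higher after deletion were 1 row that the lymphocyte gene Trbc2, a constant segment of the T cell receptor, shared with other segments, at 12.1 and 436 FPKM, and the hepatocyte gene Cps1, an enzyme of the urea cycle, at 0.233 and 1.204 FPKM. The part of these cells in the values of the 4 macrophage genes was not tested.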

How the data were processed

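RNA from 16 samples of 9 animals was sequenced on an Illumina HiSeq. The authors mapped reads with bowtie 2 and tested groups with Cuffdiff2 at an adjusted p-value of 0.05. The submitters' processing notes also name TopHat2 2.0.3, Cufflinks 2.0.1, DESeq2 and the builds mm9 and mm10, with no role given. FPKM, scaled by the authors and with replicates already combined, was available once per group for a selection of genes and, after WT1 deletion, of unnamed loci, and was used as deposited. Other deposited tables hold the authors' log2 fold changes, p-values and q-values and were not used. No column of values per sample was left unused.

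The tests planned for replicates could not be run. Log2 ratios of group FPKM were taken without a pseudocount, and 2-fold was the limit for a call. Rows were matched by gene symbol, split at commas. The 10 members and all gene lists were chosen with earlier results of these data known. Genes were named by a rule: the members, in each list the 2 rows of highest FPKM and the row of largest ratio with an FPKM of at least 1, and the 5 rows nearest to each class; Timd4, Msr1, Lgmn, Mertk, Spi1, C1qc, Itgam, C5ar1, Ctsh, Adgre1, Pdgfrb, Clec12a and genes in both deletion tables were named after their values were seen. Promoter windows were the 250 bases before each gene start in RefSeq, and gene order came from GENCODE vM21. Alternatives were pseudocounts of 1 and 0.1, an FPKM of at least 1, limits of 1.5-fold and 4-fold, rows naming 1 gene, centring on the median, the mean, and another class for Folr2. The counting of rows was tested on simulated data. Calculations used Python 3.11.15, and figures matplotlib 3.10.9 and numpy 2.4.6. WT1 itself is not analysed here.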

Additional observations from a re-analysis of the deposited data

Results flagged for a closer look

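After WT1 deletion 4 genes of the macrophage lists differed in opposite directions in the 2 aHSC fractions. Ms4a7 had a log2 ratio of 1.52 in the GFP-high fraction and of -2.02 in the GFP-intermediate fraction. These ratios were 2.28 and -2.16 for Gpnmb, 1.68 and -1.50 for Fabp5, and 3.08 and -3.91 for Atp6v0d2. Another 6 listed genes with a row in both fractions, Ctse and 5 granulocyte genes, had the same direction in both. Each value is that of a group, the fractions share animals, and the difference between fractions was not tested. None of the 10 members had a row in both fractions.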

How the results depend on the processing

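With pseudocounts of 1 and 0.1, an FPKM of at least 1, a limit of 1.5-fold or rows naming 1 gene, the counts of members called were as given, 6 higher and 3 lower in qHSCs and 10 lower in GFP-intermediate aHSCs. At 4-fold 4 were called higher and 0 lower in qHSCs and 4 lower in GFP-intermediate aHSCs. Centred on the median of all rows, 5 were called higher in qHSCs, and 2 lower in GFP-intermediate aHSCs, where every row had been selected for its difference. No member changed direction under these settings. Shares of all rows past the 4-fold and centred limits are not given. The gap between the classes was 3.10 to 3.48 in qHSCs. In GFP-intermediate aHSCs it was -0.10, and 0.10 with Folr2 among the other macrophage genes. With Ctss left out, chosen after seeing the data, the resident Kupffer share was 33.4%, 43.6% and 48.3% in label-negative qHSCs and in control and WT1-deleted GFP-intermediate aHSCs.

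No paired analysis was possible because each group has 1 value. For the same reason replicates were not left out in turn. In GFP-high aHSCs no alternative gave a value, since no member had a row. Depth is unknown, and values under 1 FPKM are given without a limit of detection.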
